A study of Rattus norvegicus with 36 samples.

Results

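The genes described here encode the proteins of the cytosolic ribosome. They were taken by name from the deposited table: symbols that start with Rps, Rpl or Rplp, go on with a number and end there or in a, l, x or y. Of 23487 genes in the table, 72 names matched, and the 63 with a mean of at least 1 CPM (a gene's counts per M counts of its library) over the 36 libraries were kept. They comprise 24 proteins of the small subunit and 39 of the large subunit. Rps21, at a mean of 25.4 CPM, was the member just inside the minimum, and Rpl39, at 0.705 CPM, lay just outside it.

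RNA was sequenced from alveolar macrophages, which clear inhaled particles from the air spaces, taken from male rats of the F344 strain and kept as primary cultures. Exposure lasted 4 days and was to 1 of 3 titanium dioxide particles, G1-1, G3-1 and Bayertitan, or to the carbon black Printex90. Each particle had an overload group, a non-overload group and its own control group, with 3 biological replicates in each of the 12 groups. All groups came from the same sex and strain. The sources used here give neither the amounts of particle nor the animals' ages, and they do not say whether replicates came from separate animals. The spread behind each p-value is therefore that between these samples, and it may be technical.

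A ribosome is built from ribosomal RNA and one copy of almost every ribosomal protein, except the stalk proteins, and cells coordinate the supply of these proteins closely. The mRNAs of ribosomal proteins typically begin with a C and a run of pyrimidines, the terminal oligopyrimidine (TOP) tract. Through this tract the kinase complex mTORC1 and the RNA-binding protein Larp1 control their translation and stability. mTORC1 works at the surface of lysosomes, the organelles in which macrophages hold what they have engulfed.

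To show what a TOP tract looks like in these genes, the 30 bases around the annotated transcription start are printed for 6 members that carry it. Members without a tract at the annotated start, among them Rpl26 and Rpl21, are not printed. They run 5′ to 3′ on the gene's strand from 15 bases before the start, and capitals mark the unbroken pyrimidine run that covers the start. The sequences and positions are from RefSeq's annotation of the GRCr8 build, while the counts refer to Rnor_6.0.
Rpl35, chr3:43165907-43165936, minus strand: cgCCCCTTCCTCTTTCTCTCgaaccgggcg
Rpl19, chr10:83519049-83519078, plus strand: cgcgaccagcaagCTCTTTCCTTTCgctgc
Rps18, chr20:4933730-4933759, plus strand: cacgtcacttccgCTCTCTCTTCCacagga
Rplp0, chr12:46718376-46718405, minus strand: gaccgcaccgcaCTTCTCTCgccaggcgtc
Rplp1, chr8:71290858-71290887, minus strand: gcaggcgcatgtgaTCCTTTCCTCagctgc
Rpl10, chrX:157205835-157205864, plus strand: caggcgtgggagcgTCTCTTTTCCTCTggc

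The main change was in one group. In G1-1 overload, 42 of the 63 ribosomal protein genes fell against G1-1 control and 1, Rpl10, rose. The median over the 63 was -0.37 on the log2 scale. The background in this comparison was 14.4% of all 14606 tested genes called lower and 13.7% called higher, with a median of -0.02. No member was called under overload of Printex90, G3-1 or Bayertitan, and none under non-overload of any particle. Calls are from edgeR's quasi-likelihood test at a Benjamini-Hochberg adjusted p under 0.05 over all tested genes, and all 63 members passed the filter on low counts.

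The summed share of a library's counts that went to the 63 genes shows the same group. It was 1.53, 1.61 and 1.57% in the G1-1 overload libraries, against 1.93, 2.10 and 2.10% in G1-1 control, a ratio of means of 0.768. The other 33 libraries lay between 1.79 and 2.38%, so none of them reached down to the G1-1 overload values. In Printex90 the share averaged 2.04% ± 0.018 under overload and 2.20% ± 0.115 in control (SD, n = 3 each), without overlap and with a ratio of 0.926. For G3-1 it averaged 2.19% ± 0.165 under overload and 2.27% ± 0.0601 in control, and for Bayertitan 2.04% ± 0.212 and 2.04% ± 0.218, with overlapping groups in both. The share rests on library totals alone. On that scale the median log2 fold change of all tested genes under Printex90 overload was -0.08, and that of the members -0.13. Under G1-1 overload the same medians were -0.08 and -0.42. No p is given for the share, because it is a score over the chosen genes, and in bulk samples fewer cells of a type and less RNA per cell cannot be told apart.

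**Figure D1:**
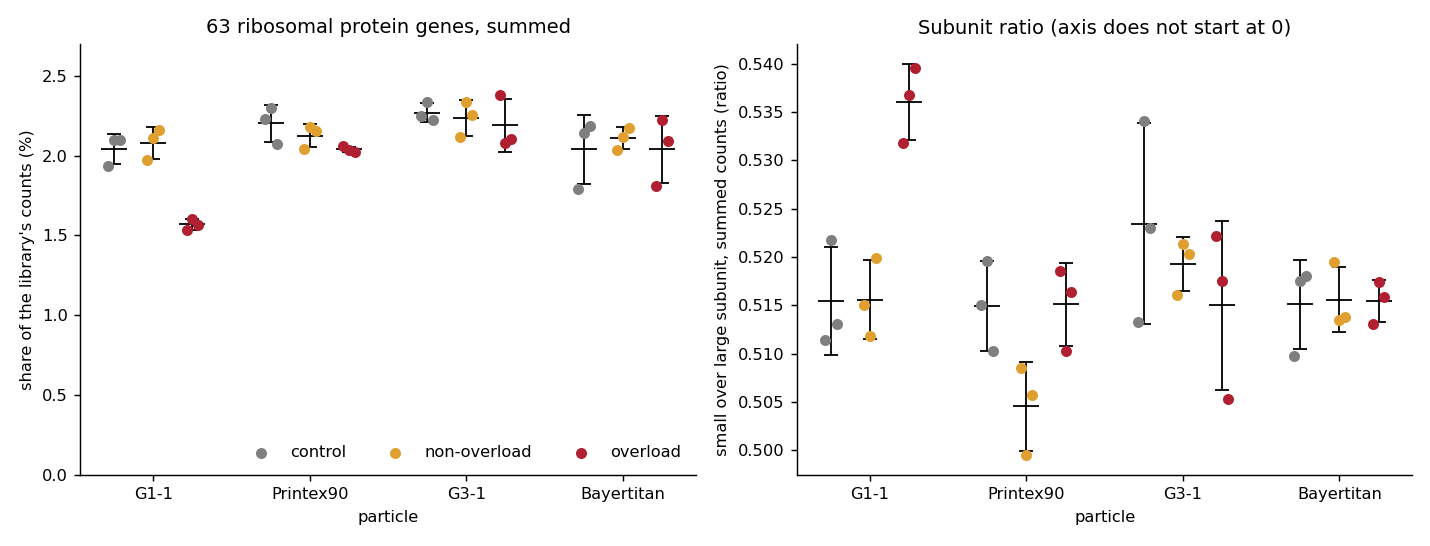
Left, the percentage of each library's counts assigned to the 63 ribosomal protein genes. Right, summed small subunit counts over summed large subunit counts. Points are libraries, coloured by condition within each particle, and bars give the mean and SD of 3. The 3 G1-1 overload libraries sit at 1.53 to 1.61% on the left, below all others, and at 0.532 to 0.540 on the right.

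The step came between the non-overload and the overload condition of G1-1. The share averaged 2.04% ± 0.0953 in control, 2.08% ± 0.0999 under non-overload and 1.57% ± 0.036 under overload. For G1-1 overload against non-overload, 47 members were lower and 0 higher, against a background of 12.4% of genes called lower, and the members' median was -0.44 (log2). Members whose libraries did not overlap and were lower under overload numbered 50 of 63 against control and 53 of 63 against non-overload. Over all tested genes the same held for 19.9% and 17.7%. Both comparisons use the same 3 overload libraries.

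Most of the largest falls were in large subunit genes. Rpl35, a protein at the rim of the exit tunnel through which the new chain leaves the ribosome, had 119, 123 and 133 CPM in G1-1 overload, against 268, 293 and 300.1 CPM in G1-1 control. These levels, scaled by trimmed mean of M-values (TMM), did not overlap, and all other 33 libraries lay between 225 and 356 CPM. The log2 fold change was -1.20 ± 0.12 (SE, edgeR adjusted p = 4.92e-09). Rpl26, also at the exit tunnel, had 162, 167 and 177 CPM in G1-1 overload, against 312, 350.1 and 354 CPM in control. Its log2 fold change was -1.01 ± 0.09. Rpl19, a long helical protein that reaches over to the small subunit, had 275, 289 and 300.4 CPM in G1-1 overload, against 548, 565 and 599 CPM in control. All 3 overload libraries were at about the same low level, and the change was -0.99 ± 0.07 (edgeR adjusted p = 5.38e-12). Rpl21 had 85.5, 89.3 and 90.1 CPM in G1-1 overload, against 161, 177 and 183 CPM in control, a change of -0.98 ± 0.08. After these 4 genes there was a gap, and Rpl7, the next in size, changed by -0.64 ± 0.05.

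Rpl5 and Rpl11 bind the 5S ribosomal RNA together, and when ribosome assembly is disturbed the pair can bind and inhibit Mdm2, the ubiquitin ligase of p53. Both fell. Rpl5 had 254, 264 and 259 CPM in G1-1 overload, against 387, 405 and 408 CPM in control, and its log2 fold change was -0.63 ± 0.06. Rpl11 had 188, 191 and 185 CPM in G1-1 overload, against 249.7, 274 and 276 CPM in control, and changed by -0.50 ± 0.09. Rpl3, which lines the peptidyl transferase centre, had 452, 462 and 475 CPM in overload, against 588, 612 and 606 CPM in control, and changed by -0.38 ± 0.04. Its libraries were also clear of each other, although the change was smaller.

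Apart from Rpl35, Rpl26, Rpl19 and Rpl21, the large subunit genes called lower changed by -0.64 (Rpl7) to -0.12 (Rplp0). Rpl7 had 269.7, 267 and 277 CPM in G1-1 overload, against 403, 436 and 429 CPM in control, and all 3 overload libraries were well below control. Rpl23a, where the signal recognition particle docks, had 216, 223 and 210.4 CPM in overload, against 318, 341 and 349 CPM in control, a change of -0.64 ± 0.10. Rpl36, among the 3 members of lowest mean CPM, had 23.2, 25.7 and 24.2 CPM in overload, against 31.6, 35.4 and 35.2 CPM in control. Its change of -0.48 ± 0.15 was called (edgeR adjusted p = 0.0158), but without any one of 3 libraries, control replicate 2 and overload replicates 1 and 3, the adjusted p was 0.0512 to 0.0539, and it was 0.108 with the level of epithelial markers as a covariate. Rps21 and Rpl30, the other members of low CPM, were not called, at -0.20 ± 0.17 and -0.18 ± 0.16. CPM is not scaled to transcript length, so these levels do not rank the genes.

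In the small subunit, Rps3a, Rps18 and Rps24 were among the genes that fell. Rps18, a protein of the small subunit head, had 245, 237 and 269 CPM in overload, against 326, 369 and 350.3 CPM in control, and changed by -0.48 ± 0.09. Rps24, one of the genes mutated in Diamond-Blackfan anaemia in humans, had 146, 146 and 137 CPM in overload, against 182, 209 and 197 CPM in control, a change of -0.45 ± 0.11. Rps4x, the X-linked form of Rps4, fell less, with 374, 381 and 399 CPM in overload, against 444, 472 and 474 CPM in control, and a change of -0.27 ± 0.05. Rps3a had 342, 340.4 and 369 CPM in overload, against 469, 506 and 508 CPM in control, and changed by -0.50 ± 0.05. None of these 4 genes had an overload library within the range of its control libraries.

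Not every member moved down. The stalk, made of Rplp0 and the acidic P proteins, recruits the GTPases that drive translation. Rplp0 had 869, 865 and 949.6 CPM in G1-1 overload, against 960.1, 969.8 and 977 CPM in control. Its change of -0.12 ± 0.04 passed narrowly (edgeR adjusted p = 0.0304) and did not when any one of 5 of the 6 libraries, all but overload replicate 3, was left out (adjusted p of 0.0513 to 0.128) and under 5 other settings. Rplp1 had 747, 702 and 759 CPM in overload, against 657, 692 and 707 CPM in control, and its change of 0.10 ± 0.09 was not called. Rpl10, a late-joining protein next to the peptidyl-tRNA site, was the member called higher, with 984, 934 and 1110.0 CPM in overload, against 838, 827 and 888 CPM in control. Its change was 0.25 ± 0.07 (edgeR adjusted p = 0.00511), and without overload replicate 3, the highest library, it was 0.18 with an adjusted p of 0.0713. The call was also lost with the epithelial marker level as a covariate (adjusted p = 0.0548). Part of the rise was already seen in G1-1 non-overload. Rpl10 changed by 0.14 ± 0.07 from control to non-overload and by 0.11 ± 0.07 from non-overload to overload, neither of them called.

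The remaining 20 members were not called in G1-1 overload against control. In the small subunit they included Rps2, Rps3, Rps13, Rps15a, Rps16, Rps21, Rps27, Rps27l and Rps28. Their large subunit counterparts included Rpl9, Rpl10a, Rpl15, Rpl27, Rpl30, Rpl36a, Rpl37, Rpl37a and Rplp1. A missed call does not show an equal level: Rpl37a was at -0.28 ± 0.14 and Rps15a at -0.27 ± 0.14, both with no overlap between the groups. Rps2, named here after its values were seen, was close to 0 with a small error, at 0.02 ± 0.06. It had 673, 713 and 705 CPM in overload, against 671, 679.7 and 715 CPM in control. The fall was uneven over the members, whose fold changes ran from -1.20 to 0.32.

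**Figure D2:**
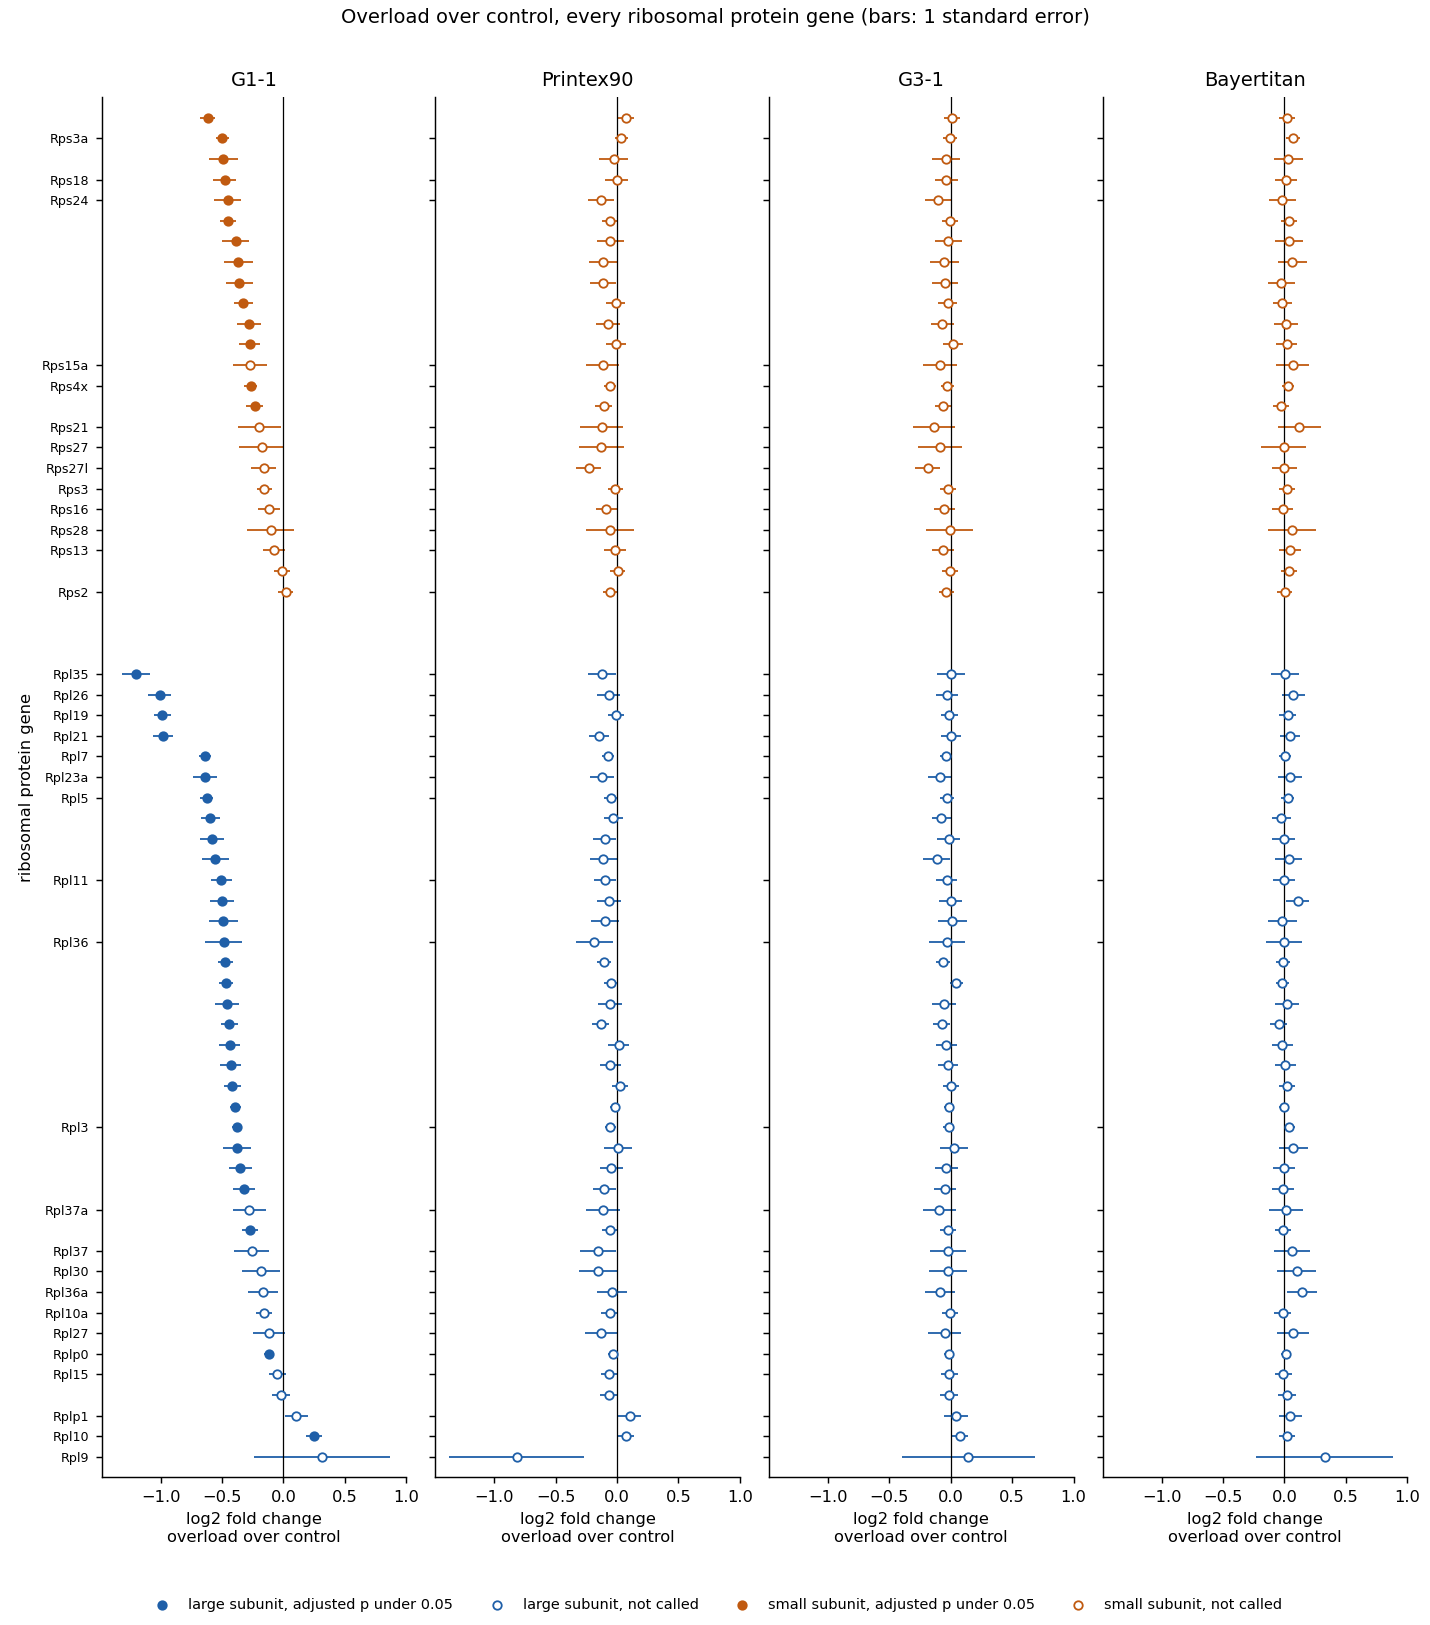
Log2 fold change of overload over control for each of the 63 genes, 1 panel per particle, with bars of 1 standard error and the names of the genes given in the text. Small subunit genes are in orange above and large subunit genes in blue below, ordered by the G1-1 value, and filled points have an edgeR adjusted p under 0.05. Filled points occur in the G1-1 panel alone, from -1.20 for Rpl35 to 0.25 for Rpl10.

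Rpl9 stood apart as the member with wide variation inside groups. It had 52.2, 64.7 and 17.8 CPM in G1-1 overload, against 28.6, 40.6 and 38.9 CPM in control, and ran from 9.98 to 97.7 CPM over the 36 libraries. Its log2 fold changes, 0.32 ± 0.56 in G1-1 and -0.82 in Printex90, were not called. Rpl9 gives the points farthest from the rest in several comparisons, and leaving it out changed no count of called members.

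**Figure D3:**
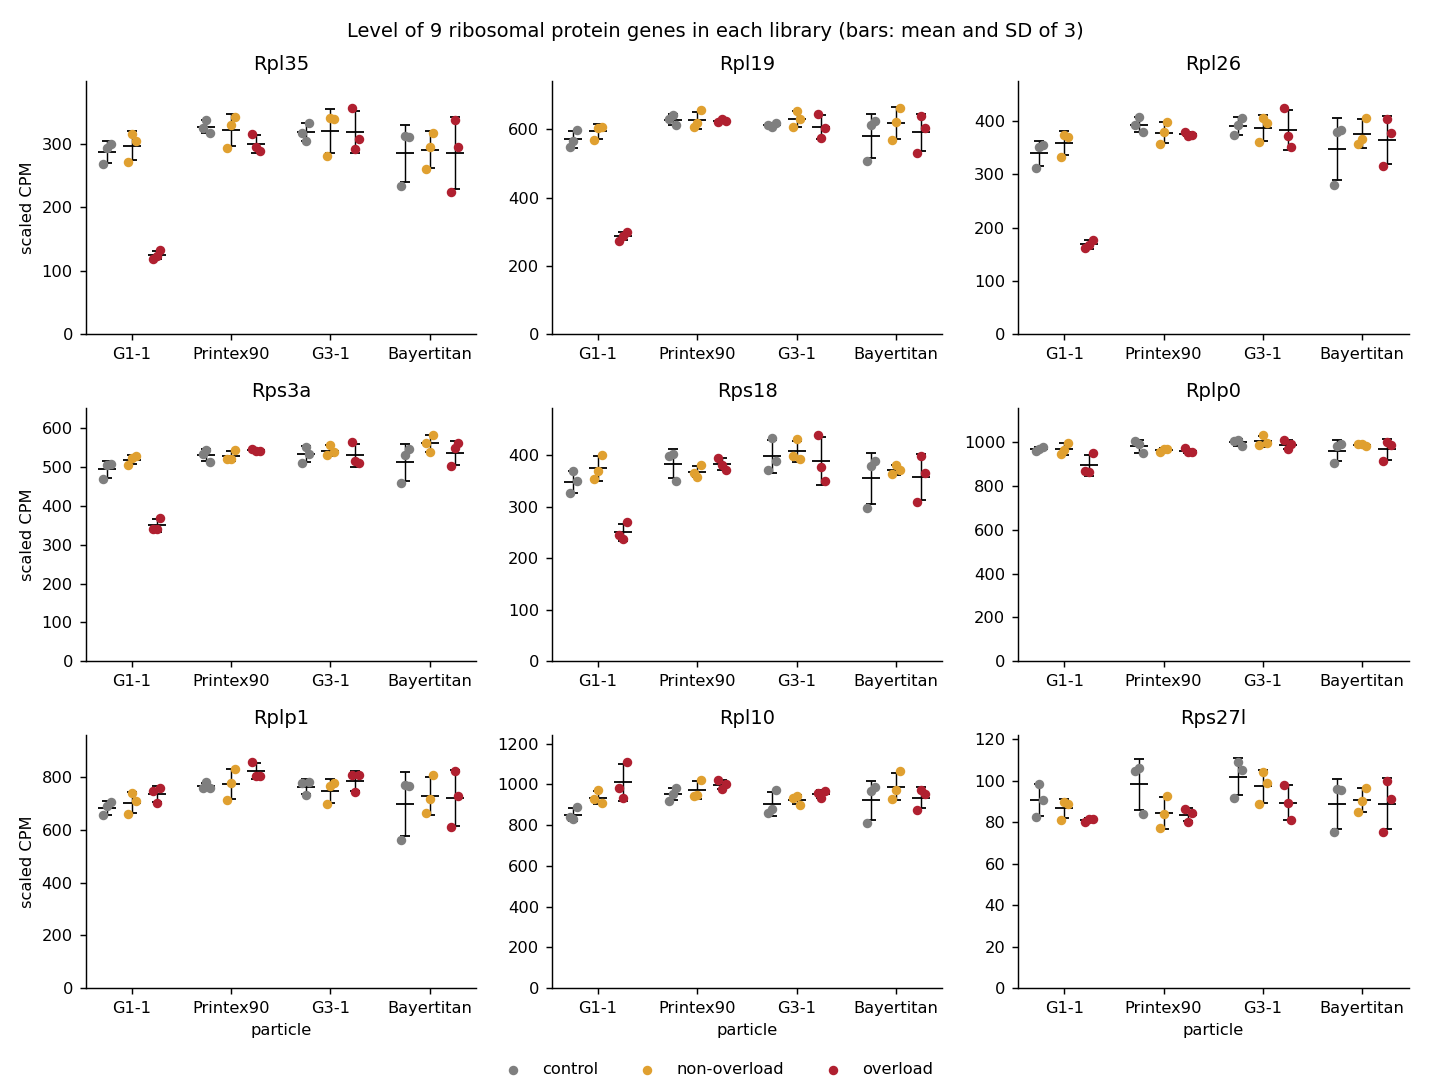
TMM-scaled CPM of 9 ribosomal protein genes in every library, grouped by particle, with control, non-overload and overload from left to right. Points are libraries and bars the mean and SD of 3. For Rpl35, Rpl19, Rpl26, Rps3a and Rps18 the 3 G1-1 overload libraries lie below all others, while Rplp1 and Rpl10 do not show this.

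The subunits both fell in G1-1 overload, and the large one by more in its median and its summed counts. Of 24 small subunit genes 14 were lower and 0 higher, with a median log2 fold change of -0.27. Of 39 large subunit genes 28 were lower and 1 higher, with a median of -0.43. The mean share of library counts was 0.788 times that of control for the small subunit genes and 0.758 times for the large subunit genes. The ratio of summed small to large subunit counts was 0.532, 0.537 and 0.540 in G1-1 overload, against 0.511, 0.522 and 0.513 in G1-1 control. These groups did not overlap, but 1 library elsewhere, replicate 2 of G3-1 control, reached 0.534. The ratio also did not overlap in Printex90, where no member was called: it was 0.508, 0.499 and 0.506 in non-overload, against 0.515, 0.520 and 0.510 in control, and the overload libraries, at 0.519, 0.510 and 0.516, were above non-overload. The ratio of mean ratios was 0.980 for Printex90 non-overload over control and 1.02 for overload over non-overload. Among the other groups, means ran from 0.505 ± 0.0046 in Printex90 non-overload to 0.523 ± 0.0104 in G3-1 control. The differences in subunit ratio are descriptions, and with geometric means in place of sums the G1-1 overload ratio was 1.09 times its control, against 1.04 times with sums. The 4 genes that fell most, Rpl35, Rpl26, Rpl19 and Rpl21, were all in the large subunit. Shares and ratios were not recomputed without them, so the sums do not show a fall spread over the large subunit. The part of these 4 genes in the gap between the subunits was not tested.

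**Figure D4:**
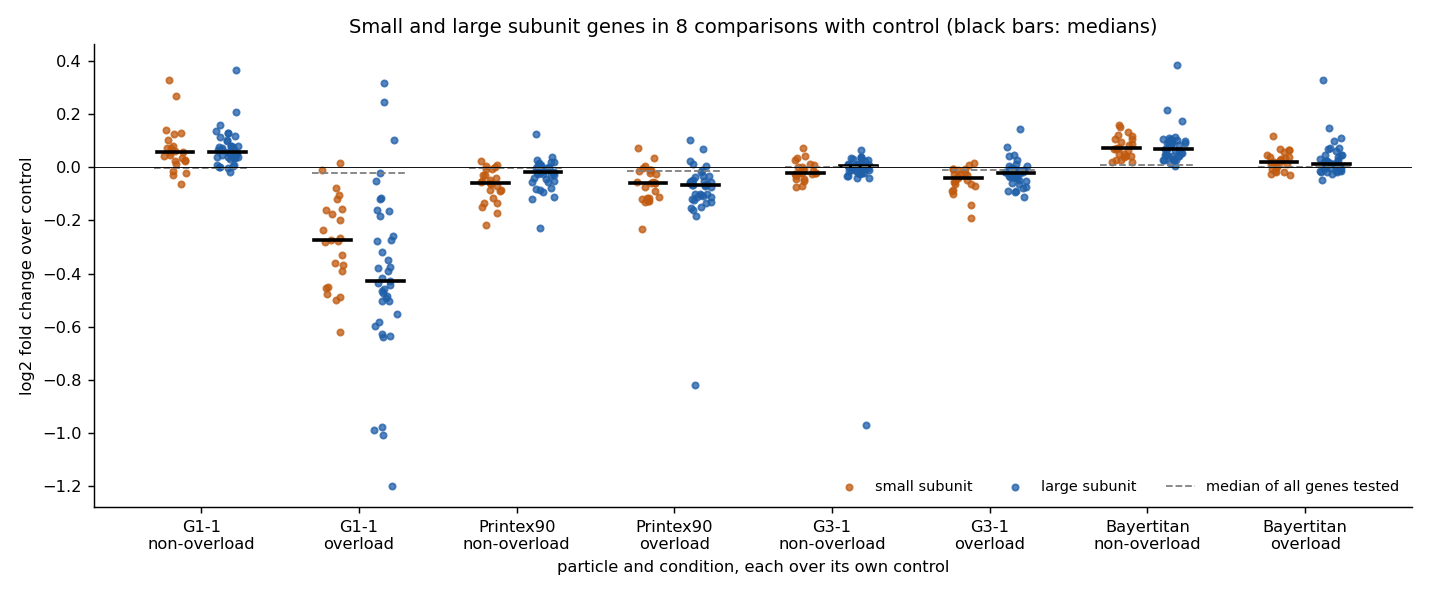
Log2 fold change over control of small (orange) and large (blue) subunit genes under non-overload and overload of each particle. Each point is a gene, black bars are medians of the subunit and dashed lines medians of all tested genes. The medians leave the range around 0 in G1-1 overload, at -0.27 and -0.43, and the isolated points elsewhere near -0.82 and -0.97 are Rpl9.

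Printex90 overload, the other condition with a broad response, left these genes at a median log2 fold change of -0.06, with 55 of 63 below 0. None was called, against a background of 14.8% of genes called in either direction, and the count was also 0 with DESeq2. At an unadjusted p under 0.05 there was 1 member, Rps27l, at -0.23 ± 0.10 (edgeR adjusted p = 0.136). When libraries were scaled by their total counts alone, 4 members were called. Rpl19 shows the contrast with G1-1: it had 623, 629 and 624 CPM in Printex90 overload, against 630.1, 643 and 613 CPM in Printex90 control, a change of -0.008 ± 0.07.

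G3-1 and Bayertitan, the other titanium dioxides, had few responding genes of any kind. Under G3-1 overload 0 members were called with a background of 0.568%, and their median was -0.03. Under Bayertitan overload 0 were called with a background of 0.329%, and their median was 0.02. In both, the count was 0 at an unadjusted p under 0.05 and with DESeq2. Replicate 1 of Bayertitan control and of Bayertitan overload had the lowest shares outside G1-1 overload, 1.79 and 1.81%, and the other 4 libraries of these groups had 2.09 to 2.22%.

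Non-overload left the members near control. For G1-1 non-overload 0 were called (background 0.459%), with a median of 0.06 and 57 of 63 above 0, while for Printex90 0 were called (0.205%) with a median of -0.03. For G3-1, 0 members and 0.0% of all genes were called, with a median of -0.0026, and for Bayertitan 0 were called (0.335%) with a median of 0.07 and all 63 above 0. At an unadjusted p under 0.05 there was 1 member each for G1-1, Rpl10, and Printex90, Rps27l, there were 2 for Bayertitan, Rpl3 and Rps3a, and 0 for G3-1. DESeq2 called 0 in each. Overload against non-overload called 0 members for Printex90 (background 3.51%), G3-1 (0.0274%) and Bayertitan (0.0%), with 0 at an unadjusted p under 0.05 and 0 with DESeq2. Averaged over the 4 particles, the non-overload response had 0 members called (background 4.94%), 2 at an unadjusted p under 0.05, Rpl10 and Rps3a, and 0 with DESeq2.

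The difference between particles was tested directly. The overload response of G1-1 was lower than that of Printex90 for 23 members (background 6.71% lower), than that of G3-1 for 24 (6.16%) and than that of Bayertitan for 27 (6.81%), and higher for 0 in each. These 3 tests share the G1-1 libraries. For Rpl19 the difference was -0.98 ± 0.09 to Printex90, -0.98 ± 0.09 to G3-1 and -1.01 ± 0.09 to Bayertitan. The adjusted p of Rpl19 was at most 2.24e-08 in each. For Rpl7 the difference was -0.57 ± 0.07 to Printex90 and -0.65 ± 0.07 to Bayertitan, and for Rpl21 it was -0.98 ± 0.11 to G3-1. Of the subunits, the small one had 4, 5 and 6 genes called lower in these tests and the large one 19, 19 and 21. Between Printex90 and G3-1 (background 0.644%), Printex90 and Bayertitan (1.18%) and G3-1 and Bayertitan (0.0%) 0 members differed, with 0 at an unadjusted p under 0.05 and 0 with DESeq2. Without the 8 libraries in which the collagen gene Col3a1 exceeded 10 CPM, 12 in place of 24 members differed between G1-1 and G3-1. Without overload replicate 1 of Bayertitan, 41 in place of 27 differed between G1-1 and Bayertitan.

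The mean overload response over the 4 particles had 30 members lower (background 17.5%) and 1, Rpl10, higher (background 14.4%), with a median of -0.11. The call of Rpl10 was lost under 3 settings (adjusted p of 0.0747 to 0.552). The medians behind this mean were -0.37 for G1-1, -0.06 for Printex90, -0.03 for G3-1 and 0.02 for Bayertitan. Rps27l is the paralogue of Rps27 that p53 induces, and both are measured here. It was called lower in the mean, at -0.15 ± 0.05 (edgeR adjusted p = 0.0325), and its changes were -0.16 ± 0.10 in G1-1, -0.23 ± 0.10 in Printex90, -0.19 ± 0.10 in G3-1 and -0.0003 ± 0.10 in Bayertitan. In G1-1 it had 80.0, 81.8 and 81.4 CPM under overload, against 82.8, 98.3 and 90.7 CPM in control. The call was lost when any of 11 libraries was left out (adjusted p of 0.0534 to 0.0701) and under 2 other settings, and Rps27 itself was at -0.10 ± 0.09 in the mean, not called. The mean count fell to 14 members with the level of epithelial markers as a covariate and to 16 without the 8 libraries of high Col3a1.

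Members differed in the letters at and around their annotated starts. Of the 63, 51 had a RefSeq promoter. Among them, 19 (37.3%) had a C at the annotated start followed by at least 4 pyrimidines, against 2.67% of the 9786 tested genes with a promoter. In the 300 bases from 250 before to 50 after the start, the letters CCGGAAG, the core of many ETS factor sites, were on either strand of 29.4% of the members and 17.2% of all these genes. The letters AAGATGG, from the YY1 motif, were in 15.7% and 8.22%, and a match to one can overlap the other at the shared AAG. They include ATG, the letters of a start codon, and in Rpl7a they lie after the annotated start. A match to these letters is thus not by itself a factor site. By this strict match, 12 of 19 members with the tract and 23 of 32 without it were lower in G1-1 overload, with medians of -0.46 and -0.36. Members counted as without it include Rpl27a and Rps23, each with 19 pyrimidines from a start that is not a C. The split therefore does not cleanly divide genes with and without a tract, and its part in the fall was not tested. As printed above, Rpl35, which fell most, and Rpl10, which rose, both carry the tract. An annotated start can be off by some bases, so a missing tract says only that these letters are not at this start.

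Other parts of the translation machinery were read from lists of genes outside the members. Of 17 elongation factors and other known TOP mRNAs, 9 fell and 1 rose in G1-1 overload, with a median log2 fold change of -0.20. Naca, a subunit of the complex that binds chains as they leave the ribosome, changed by -0.71 ± 0.04, Eef1d, an exchange factor of elongation, by -0.71 ± 0.06, and Npm1, a nucleolar assembly factor, by -0.41 ± 0.08. The means of the elongation factors Eef1a1 and Eef2 shifted less and in opposite directions, with overlapping libraries in both. Eef1a1 averaged 3026 ± 179.5 CPM in G1-1 overload, against 3251 ± 50.66 CPM in control (SD, n = 3 each). Eef2 averaged 1905 ± 109.5 CPM in overload, against 1797 ± 30.28 CPM in control. Of 27 initiation factors 14 fell and 2 rose, with a median of -0.15. Eif5b, which joins the subunits, changed by -0.94 ± 0.05, Eif3g, a subunit of the scaffold eIF3, by -0.65 ± 0.05 and Eif2b3, a subunit of the exchange factor of eIF2, by -0.50 ± 0.05. Of 6 further genes of ribosomal proteins or named after them, 3 fell (Rps19bp1, Rpsa and Rpl7l1) and 0 rose, with a median of -0.28.

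The list of regulators of TOP mRNAs moved differently. Of 24 genes of mTORC1 and its controls, 10 rose and 3 fell in G1-1 overload, with a median of 0.14. The list mixes genes that promote translation with genes that slow it, so this median gives no direction for TOP mRNAs. Rptor, the mTORC1 subunit that binds its substrates, changed by 0.32 ± 0.05, Eef2k, the kinase that slows elongation, by 0.30 ± 0.06, and Pdcd4, an inhibitor of the helicase Eif4a, by -0.66 ± 0.08. Eef2k and Rptor also rose in Printex90 overload, by 0.34 ± 0.06 and 0.17 ± 0.05, where no ribosomal protein gene was called. Of 10 genes of ribosome rescue and the Mdm2 axis, Pelo and Gcn1 rose and Abce1 and Ascc3 fell, with a median of -0.05. Cdkn1a, a p53 target, was at -0.01 ± 0.05. Of 72 genes for proteins of the separate mitochondrial ribosome, 26 fell, 3 rose and the rest were not called in G1-1 overload, with a median of -0.17, and Mrpl12 changed by -0.40 ± 0.05. In Printex90 overload 0 of these 72 fell by edgeR (2 were lower at an unadjusted p under 0.05) and 2 rose, and DESeq2 called 2 in all. Beside all these lists stand the 14.4% of genes called lower and 13.7% called higher in G1-1 overload, and 14.8% called either way in Printex90 overload.

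**Figure D5:**
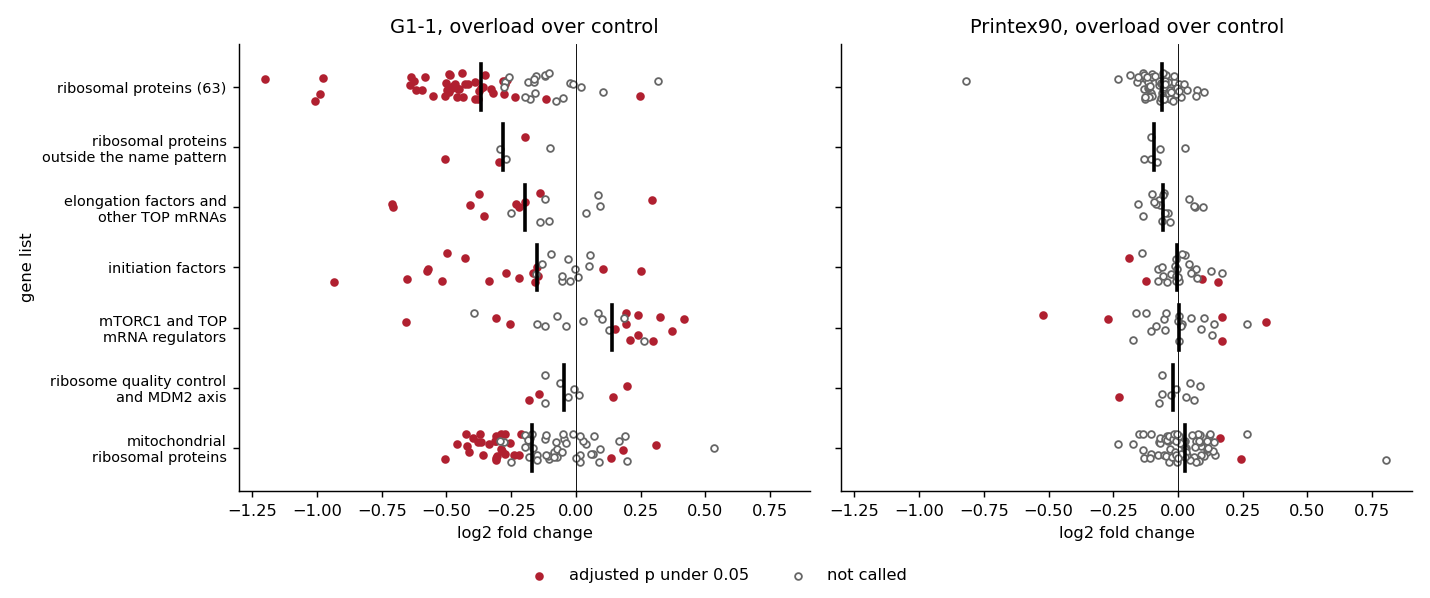
Log2 fold change of overload over control for the ribosomal protein genes and 6 lists of related genes, in G1-1 (left) and Printex90 (right). Each point is a gene, red where the edgeR adjusted p is under 0.05, and black bars are medians. In G1-1 the medians of the ribosomal proteins and of the TOP mRNAs are at -0.37 and -0.20 and that of the mTORC1 regulators is at 0.14. In Printex90 the median of the ribosomal proteins is at -0.06.

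The cultures were checked for their labelled cell type and for other cells. Mrc1 and Cd68, macrophage markers, ran from 917 to 1233 and from 603 to 974 CPM, while Marco, a scavenger receptor of alveolar macrophages, was nearly absent at 0.0296 to 1.09 CPM. The 10 macrophage markers summed to 4800 to 5160 CPM in G1-1 overload, against 4800 to 5290 CPM in control. Within this sum single markers moved in both directions: 3 of 10 were called higher and 3 lower by edgeR, with a median log2 fold change of 0.11. Siglec1, a sialic acid receptor, had 357 to 415 CPM in G1-1 overload, against 241 to 271 CPM in control, and Cd68 and Chi3l1 were the other markers called higher. Adgre1, which encodes F4/80, had 86.5 to 116 CPM in G1-1 overload, against 215 to 283 CPM in control, and Csf1r, the receptor of the growth factor Csf1, had 446 to 476 CPM, against 562 to 681 CPM. Marco was the third marker called lower, and both Marco and Chi3l1 stayed under 1 CPM in all 6 libraries. The part of these shifts in the ribosomal protein result was not tested. Epithelial markers were present: the 11 summed to 1170 to 1800 CPM in G1-1 overload, against 1620 to 2200 CPM in control, with Sftpc and Sftpb at 0 in all 6 libraries. Of the 9 tested, 0 were called in G1-1 by edgeR (3 at an unadjusted p under 0.05, and 1 by DESeq2), with 9 of 9 below 0 and a median of -0.47, while in Printex90 overload 2 were called lower, with a median of -0.53. With the epithelial level as a covariate, 37 members were called in G1-1 overload against control. The 6 fibroblast markers summed to 64.2 to 218 CPM in G1-1 overload, against 98.2 to 132 CPM in control. Without the 8 libraries of high Col3a1, among them replicate 2 of G1-1 overload, 39 members were called. The 5 neutrophil markers summed to 7.35 to 8.83 CPM in G1-1 overload, against 8.37 to 10.2 CPM in control, and markers of T lymphocytes, B lymphocytes and red cells to at most 5.11 CPM in either group. Depth was 26.1 to 43.2 M counts per library.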

How the data were processed

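The authors deposited 1 table of estimated counts (expected counts) per gene name. Per the submitters' processing notes, the tools used included FastQC, MultiQC and Salmon, and the genome build was Rnor_6.0. Tool versions and options are not given in the sources used. Per the labels' protocols, cells were kept for 5 days in medium with serum, and libraries were made from 150 ng of RNA after removal of ribosomal RNA. Ribosomal protein genes have many near-identical copies, and reads can be split between them, so single values are uncertain. Whether strand was used is not stated either.

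The counts (30.5% had decimals) were rounded and tested with edgeR 4.0.16 in R 4.3.3: TMM scaling, filterByExpr (minimum count 10, minimum total 15, 14606 genes kept), 1 coefficient per group over all 36 libraries, 24 residual degrees of freedom, quasi-likelihood test, Benjamini-Hochberg adjusted p under 0.05. The common biological coefficient of variation was 0.103. Errors of fold changes are standard errors. Between replicates of a group, chi-square divided by its degrees of freedom was 3.82 to 37.2, above sampling noise in every pair. Alternatives were DESeq2 1.42.0, other scalings, no filter, each particle alone, a replicate block, marker covariates and libraries left out. The fit was tested on simulated counts. Promoters were matched by symbol to RefSeq's GRCr8 table.

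The members and lists were chosen with earlier results of these data known. Named were members chosen for their role, the called members with the largest changes, those with the smallest p in the differences between particles, and from each list the 3 genes with the smallest p in the mean overload response. Among the members, Rpl9, Rpl23a, Rpl37a, Rps2, Rps3a and Rps15a were described outside these rules. Their fold changes are not among the recomputed ones of named members below. Some single members are not reported by name here.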

Additional observations from a re-analysis of the deposited data

Results flagged for a closer look

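Responses to overload that differed between particles, by a test of the difference itself, all involved G1-1. Its response was below that of Printex90 for 23 members, below that of G3-1 for 24 and below that of Bayertitan for 27 (edgeR, adjusted p under 0.05). The single genes with the smallest p were Rpl19 in all 3, at -0.98 against Printex90, -0.98 against G3-1 and -1.01 against Bayertitan on the log2 scale. Next came Rpl7 against Printex90, at -0.57, Rpl21 against G3-1, at -0.98, and Rpl7 against Bayertitan, at -0.65. With 3 libraries per group, single outlying libraries were not looked for by a gap test.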

How the results depend on the processing

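Of 404 recomputed counts of called members, 398 stayed within 1.5 times the main count. Most comparisons had a main count of 0, and 0 against 0 was taken as unchanged. The 398 is therefore no measure of stability for the comparisons with calls. None of 743 recomputed fold changes of named members changed direction with a call, although 51 lost it. Of 152 recomputed shares and ratios, 40 moved by more than the spread between replicates. Among them were shares of counts with another denominator or with genes added, and the small to large ratio by geometric means in every group. These settings change the quantity itself, so such moves were bound to occur, and the 40 are no measure of stability either. The share in G1-1 overload over control stayed at 0.748 to 0.792. In G1-1 overload against control the 43 called members ranged from 37 to 46 over all alternatives. The counts that moved were Printex90 overload with library totals alone, 4 in place of 0, and without control replicate 3, 1 in place of 0, the mean overload response with the epithelial covariate, 14 in place of 31, and without the high-Col3a1 libraries, 16 in place of 31, G1-1 against G3-1 without those libraries, 12 in place of 24, and G1-1 against Bayertitan with 1 library left out, 22 to 41 in place of 27. The cause was not tested, though dropping libraries also leaves fewer samples. With 1 library left out, Printex90 overload gave 0 to 1. With geometric means the small to large ratio of overload over control was 1.09 in G1-1 and 1.02 in Printex90. Replicate numbers gave no consistent pairing: 16 of 36 correlations of same-numbered deviations were over 0.1, from -0.33 to 0.64. Between control and overload all were above 0 in G1-1 (0.147, 0.264 and 0.0731) and in G3-1 (0.264, 0.0812 and 0.637). Other correlations in these particles went down to -0.31 and -0.33, so pairing is neither shown nor excluded. In Printex90 control and non-overload (0.236, 0.482 and 0.610) and in Bayertitan control and overload (0.187, 0.137 and 0.109) every pair was over 0.1. The replicate block called 0 members in both of these comparisons, as without it, 46 in G1-1 overload and 39 in the mean, and moved no count by over 1.5 times. Scaling moved the median of all genes by less than 0.1. Adding Rps27a.1, Rpl21.2, Rps10.1 and Rps19l2 to the share and the check without Rpl9 were chosen after seeing the data.

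At these depths Rps21, Rpl30 and Rpl36, the members of lowest CPM, have standard errors of 0.15 to 0.17 in G1-1 overload against control.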

Other observations

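Some ribosomal proteins are counted under other names, which the name rule leaves out. Rpl21.2 had 124, 129.5 and 126 CPM in G1-1 overload, against 222, 241 and 249.8 CPM in G1-1 control, a log2 fold change of -0.91 ± 0.09, close in size to the -0.98 ± 0.08 of Rpl21. Rps19l2, a synonym of Rps19 in RefSeq, changed by -0.61 ± 0.09, Rps10.1 by -0.28 ± 0.09 and Rps27a.1, a ubiquitin fusion, by -0.27 ± 0.08, each called by edgeR. With these 4 added, the share of counts was 1.64% ± 0.0355 in G1-1 overload and 2.15% ± 0.101 in G1-1 control (SD, n = 3 each). Rps4x.1, a further such row, varied from 0.0 to 20.7 CPM over the G1-1 libraries and was not called.

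Under the minimum of 1 CPM were Rps6, Rps20, Rps27a and Rpl13, listed at 0 in all libraries, and Rps29, Rpl39, Rpl39l, Rpl3l and Rpl10l, at means of 0.0069 to 0.705 CPM. Rps6 and Rpl13 are used by every cell, so a 0 here describes the table and not the cells.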
